A study of Mus musculus with 4 samples.

Results

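The splenic stroma, the matrix it lays down and the endothelium of the spleen were followed through 38 genes in the spleens of 4 mice. The genes were chosen by name: 19 encode collagens and other matrix proteins, 10 are expressed in contractile, mural or fibroblastic cells, and 9 in endothelium or the lining of the marginal sinus. All 38 were represented, each by 1 probe set, among 19297 measured genes. All mice were of the 129Sv background and homozygous for a floxed allele of RBP-J, the DNA-binding partner of Notch receptors. The 2 wild type mice had both Ren1d alleles intact (Ren1d+/+), were females of 80 and 81 days, and had spleens that weighed 0.12 g and 0.16 g. The 2 mice with B cell leukaemia carried cre at both Ren1d alleles, so that recombination is limited to cells in which this renin gene is or was active. Leukaemic replicate 1 was a female of 107 days with a spleen of 0.7 g, and leukaemic replicate 2 a male of 93 days with a spleen of 0.47 g. Genotype, age and spleen weight therefore cannot be told apart. Each array received RNA of 1 whole spleen, and the comparison asks which stromal transcripts take a different share of the RNA in the leukaemic organ.

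The spleen is held together by a collagenous capsule and by trabeculae that contain smooth muscle. Between them, reticular fibroblasts form a mesh of fine matrix fibres on which leukocytes move. Blood passes through arterioles, the marginal sinus around the white pulp and the sinuses of the red pulp, whose endothelium lies on an interrupted basement membrane. Fibrillar collagens give tensile strength, whereas collagen IV, laminins and nidogens build basement membranes. Because an equal amount of RNA was labelled from each spleen, a level is a share of the RNA of the organ and not an amount per spleen. In such bulk samples, fewer cells of a type and less RNA per cell cannot be told apart.

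The labels were checked before the members were compared. Tlx1 and Nkx2-5, transcription factors of the splenic mesenchyme, lay between 7.97 and 8.93 and between 8.45 and 8.85 in the 4 spleens (log2 expression values). They belong to a check list of splenic mesenchyme and leukocyte genes, 9 of them measured. For 8 of the 9 (88.9%, beside 26.2% of all genes) both leukaemic values lay below both wild type values. Limma called 5 lower (55.6%, beside 1.03% of all genes). Of the 9, 1 overlapped, and the most positive difference of the list was 0.003. The list mixes mesenchyme and leukocyte genes, so its counts do not by themselves give the difference of Tlx1 or of Nkx2-5. Their ranges over the 4 spleens do not show equal levels either. Igll1, a gene of precursor B cells, was at 7.44 and 7.48 in wild type and at 13.02 and 12.85 in leukaemic replicates 1 and 2. The floxed gene Rbpj did not pass the test (limma adjusted p = 0.41), and where its probes lie relative to the loxP sites is not known here. Wild type replicate 2 stood apart in exocrine pancreas genes, with a mean of 10.86 over 23 acinar genes against 6.41 to 6.55 in the other 3 spleens. Of the 23, 21 lay at least 1 (log2) above every other spleen there, for instance the carboxypeptidase gene Cpa1 at 12.86 against 6.74 to 6.79. Leukaemic replicate 1 had the highest values of 7 of 9 mesothelial genes, with a list mean of 7.87 against 7.20 to 7.31, although Lrrn4 of that list was high in both leukaemic spleens. Their part in the results below was not tested, and the sign changes and lost calls seen without a mouse are given here or at the end. A fit without 1 mouse takes the spread from the group that still has 2 mice and assumes that the lone spleen varies alike. Without a leukaemic mouse it also gave every gene the same spread, so that its p-values say little about a single gene.

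Few of the stromal members passed the test between leukaemic and wild type spleens, which with 2 mice per group does not show equal levels. The organs weighed 0.585 g and 0.14 g on average, in that order. Lamc1, the laminin gamma 1 chain of basement membranes, was the 1 of 38 genes that rose, and 0 fell; 37 did not pass (limma, Benjamini-Hochberg adjusted over 19297 genes). That is 2.63% of the members, beside 2.46% of all genes called in either direction, 1.43% called higher and 1.03% called lower. Over all genes, 276 were called higher and 199 lower, a split that became 350 and 147 with arrays centred on their medians. At an unadjusted p under 0.05 stood 7 members (18.4%), beside 20.7% of all genes. The members' count is thus near the background. Both leukaemic values lay below both wild type values for 13 members (34.2%, beside 26.2% of all genes) and above them for 3 (7.89%, beside 23.0%).

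Over all 38 genes the median difference, leukaemic minus wild type, was -0.14 on the log2 scale, against -0.03 over all genes, and the median size of a difference was 0.18 against 0.17. By class, the medians were -0.14 for collagen and matrix, -0.28 for contractile or mural and 0.01 for endothelial genes. The endothelial median changed sign with the scaling, being 0.07 with arrays centred on their medians and -0.04 after quantile normalization. Without leukaemic replicate 2 the median over all members moved to -0.01 and that of the matrix class to 0.03. The endothelial median was 0.15 without that mouse, -0.11 without leukaemic replicate 1 and -0.02 without wild type replicate 2. The 95% interval of the difference lay within 1 on either side of 0, that is within a 2-fold change, for 33 of 38 members and for 88.4% of all genes. For these 33, a change of 2-fold or more lies outside the interval of the fit. The intervals of Bgn, Myh11 and Pdgfra among them also exclude 0, before any adjustment for the number of genes. The exceptions were Lamc1, Dcn, Des, Madcam1 and Tek.

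**Figure D1:**
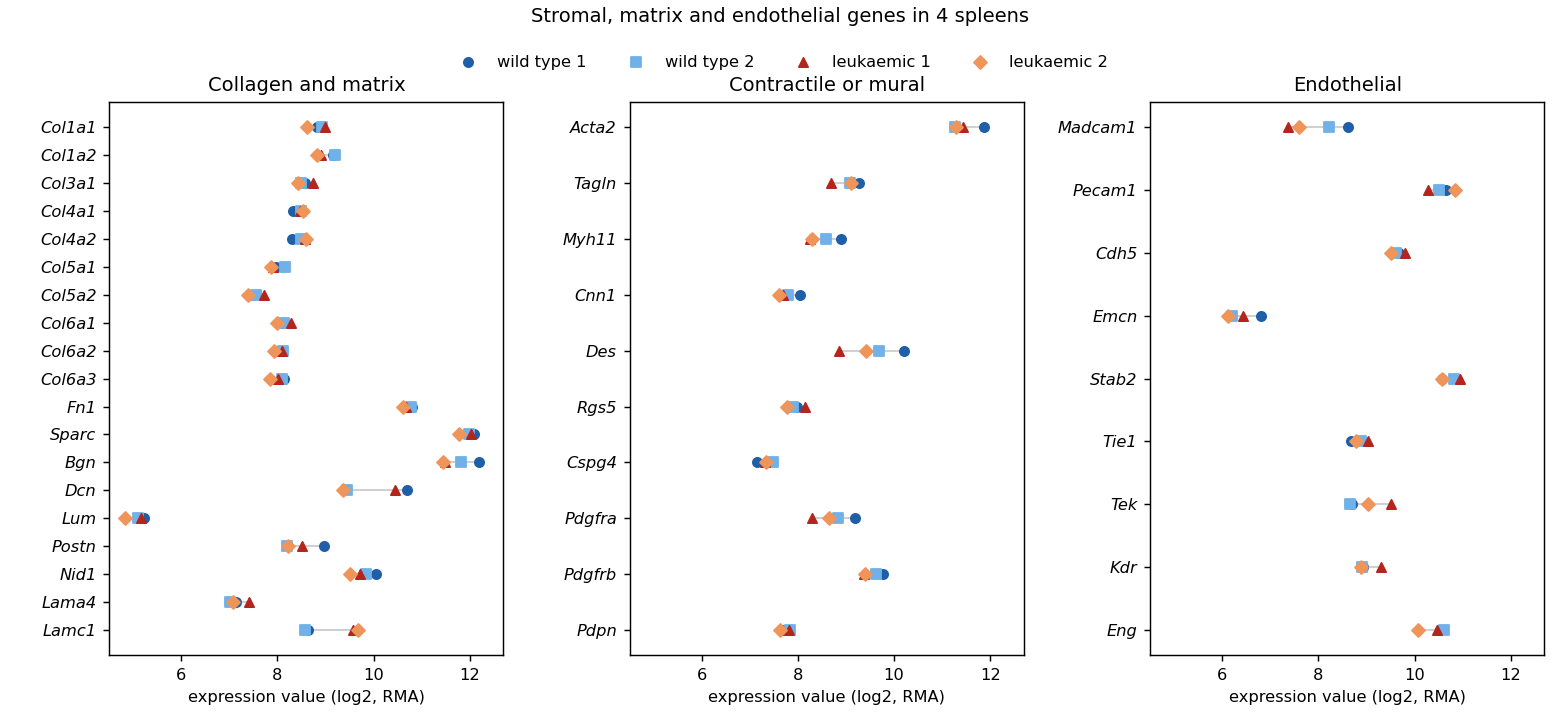
Log2 expression values (horizontal axis) of the 38 genes in each of the 4 spleens, in 3 panels by class; circles and squares are wild type replicates 1 and 2, triangles and diamonds leukaemic replicates 1 and 2. The leukaemic values of Lamc1 lie well to the right of the wild type ones, those of Madcam1 to the left, and Dcn separates replicate 1 from replicate 2 in both groups.

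**Figure D2:**
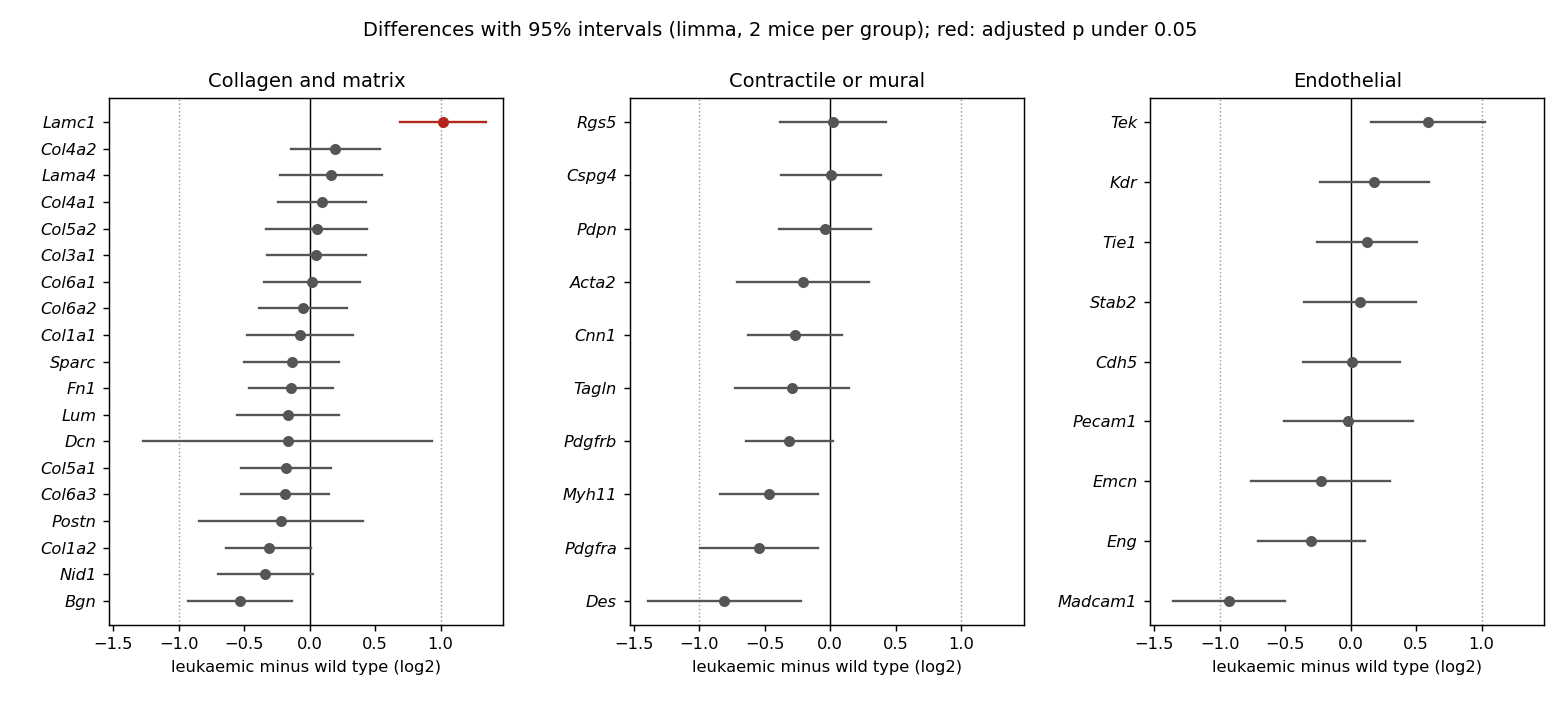
Difference between leukaemic and wild type spleens on the log2 scale (horizontal axis) with its 95% interval from limma, 2 mice per group, sorted within each class; dotted lines mark a 2-fold change and red marks an adjusted p under 0.05. Only Lamc1 is red, at 1.02, and the intervals of 33 of the 38 genes stay between the dotted lines.

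Fibrillar collagens of the capsule, trabeculae and reticular fibres did not pass the test. Col1a2, the alpha 2 chain of collagen I, was at 9.15 and 9.19 in wild type and at 8.90 and 8.81 in leukaemic replicates 1 and 2. Its groups did not overlap, with a difference of -0.31 (SE 0.14, adjusted p = 0.25). Col1a1, which encodes the other chain of the same trimer, overlapped between the groups, at 8.82 and 8.93 against 8.99 and 8.61, a difference of -0.07 (SE 0.17). Col3a1, the collagen III chain that is abundant in reticular fibres, differed by 0.05 (SE 0.16). Col5a1 and Col5a2, chains of the collagen V that nucleates these fibrils, differed by -0.18 (SE 0.14) and 0.05 (SE 0.16). Both collagen I chains had a negative difference and the collagen V chains had opposite signs, and all 5 intervals include 0. The leukaemic mice were not alike here: Col1a1, Col3a1 and Col5a2 were 0.38, 0.31 and 0.34 lower in leukaemic replicate 2 than in replicate 1.

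The 3 chains of collagen VI, which forms beaded filaments around cells, did not pass the test. Col6a1 spanned 7.99 to 8.27, Col6a2 7.93 to 8.10 and Col6a3 7.84 to 8.14, with differences of 0.02, -0.05 and -0.19. That of Col6a2 turned positive with median centring or quantile normalization. Both leukaemic values of Col6a3 lay below both wild type values (limma adjusted p = 0.55). Fn1, fibronectin, was at 10.80 and 10.77 in wild type and at 10.67 and 10.61 in leukaemic spleens. Its difference of -0.15 (SE 0.13) was among the more narrowly bounded, with a 95% interval from -0.47 to 0.17. Fibronectin is also made by macrophages, and Sparc, a collagen-binding matrix protein, is also stored in platelets. Sparc lay between 11.77 and 12.09 in all spleens and differed by -0.14 (SE 0.15).

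Basement membrane genes held the 1 call. Lamc1 was at 8.64 and 8.58 in wild type and at 9.57 and 9.68 in leukaemic replicates 1 and 2. Both leukaemic spleens were about equally high, and the gap between the groups exceeded that between mice of a group. Lamc1 rose from 8.61 ± 0.05 to 9.63 ± 0.08 (SD, n = 2), which is 2.02-fold, with a log2 difference of 1.02 (SE 0.14, limma adjusted p = 0.0245, 95% interval 0.69 to 1.34). The difference was 1.05 without wild type replicate 1 and 0.98 without wild type replicate 2, and the call was lost in each of these fits (adjusted p = 0.149 in both). Lamc1 was called after median centring or quantile normalization, with the dimmest genes left out and with a trended prior. It was also called with probe sets averaged or all fitted, and over these settings adjusted p ran from 0.00998 to 0.0394. The replicate block called it too (adjusted p = 0.00159). Same-numbered mice were not shown to be paired, so that block is no second test. Without leukaemic replicates 1 and 2 in turn, the difference was 1.07 and 0.96, in fits that gave every gene the same spread.

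The gamma 1 chain is part of most laminin trimers and binds nidogen. Its partners did not pass the test. Lama4, the alpha 4 chain of vascular basement membranes, differed by 0.16 (SE 0.16). Nid1, nidogen 1, was at 10.04 and 9.85 in wild type and at 9.71 and 9.50 in leukaemic spleens, with no overlap and a difference of -0.34 (SE 0.15, adjusted p = 0.28). Other laminin chains, looked up after the value of Lamc1 had been seen, differed by -0.24 for Lamb1, -0.28 for Lamb2, 0.12 for Lamb3, -0.08 for Lama2, -0.28 for Lama3, -0.14 for Lama5 and -0.11 for Lamc3 (SE 0.13 to 0.15). None of these 7 passed the limma test. Col4a1 and Col4a2, the chains of the common collagen IV network, differed by 0.09 and 0.19 (SE 0.14 each). Both leukaemic values of Col4a2, 8.58 and 8.59, lay above the wild type values of 8.30 and 8.49. The difference between Lamc1 and its partners was not tested.

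Small leucine-rich proteoglycans bind collagen fibrils and set their spacing. Bgn, biglycan, was at 12.18 and 11.81 in wild type and at 11.48 and 11.45 in leukaemic replicates 1 and 2. It had the most negative difference of the matrix class, -0.54 (SE 0.17, 95% interval -0.93 to -0.14, adjusted p = 0.14), and its groups did not overlap. Without wild type replicate 1 the difference was -0.35. Dcn, decorin, a marker of fibroblasts, was at 10.69 and 9.45 in wild type and at 10.44 and 9.36 in leukaemic replicates 1 and 2. Replicate 1 was thus more than 2-fold above replicate 2 in both groups, and the difference between groups of -0.17 (SE 0.46) has an interval from -1.27 to 0.94. Postn, periostin, showed the same order with smaller gaps, at 8.98 and 8.19 against 8.52 and 8.21. Without wild type replicate 1, the differences of Dcn and Postn were 0.45 and 0.17. Lum, lumican, had the lowest values, 4.83 to 5.21. It is not shown to be above background, and its difference of -0.16 is no measure of a fold.

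**Figure D3:**
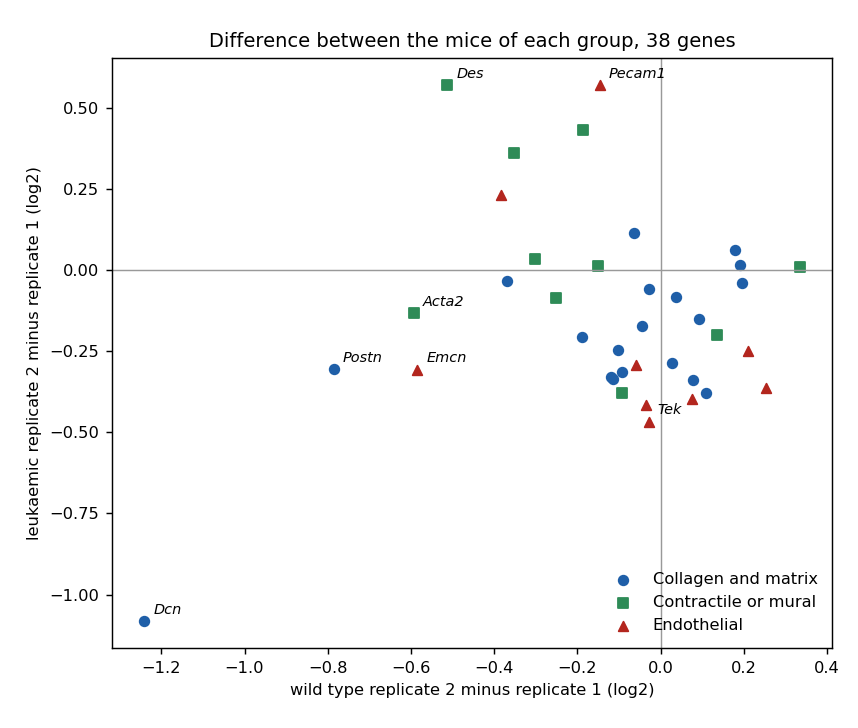
Replicate 2 minus replicate 1 on the log2 scale, in wild type (horizontal axis) and in leukaemic spleens (vertical axis), 1 point per gene, coloured by class; genes with a gap over 0.45 in either group are named. Dcn lies apart at -1.24 and -1.08, and Des and Pecam1 lie at the top, where leukaemic replicate 2 was higher.

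Contractile or mural genes had the most negative class median, and 0 of 10 were called (limma, beside 2.46% of all genes). An unadjusted p under 0.05 was reached by 3 (30%), each with a negative difference, beside 10.6% of all genes. For 5 (50%, beside 26.2% of all genes) both leukaemic values lay below both wild type values. The 2 positive differences were those of the pericyte genes Rgs5 and Cspg4. Des, desmin, the intermediate filament of muscle and of reticular fibroblasts, was at 10.20 and 9.68 in wild type and at 8.85 and 9.42 in leukaemic replicates 1 and 2. The groups did not overlap, but the mice of each group differed by 0.51 and 0.57. The difference was -0.81 (SE 0.25, 95% interval -1.40 to -0.22, adjusted p = 0.13). It was -0.52 without leukaemic replicate 1 (adjusted p = 0.64), -0.55 without wild type replicate 1, -1.07 without wild type replicate 2 and -1.09 without leukaemic replicate 2. The last fit called Des (adjusted p = 0.00754), with its spread taken from the wild type mice alone and set equal for all genes. Myh11, the smooth muscle myosin heavy chain, was at 8.89 and 8.59 in wild type and at 8.25 and 8.29 in leukaemic spleens, a difference of -0.47 (SE 0.16, adjusted p = 0.16).

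The other contractile genes had smaller differences. Acta2, smooth muscle actin, stood at 11.86 in wild type replicate 1 and at 11.27 to 11.42 in the other 3 spleens. Its difference of -0.21 (SE 0.21) rested on that mouse and was 0.09 without it. Tagln, transgelin, was at 9.28 and 9.09 in wild type and at 8.68 and 9.11 in leukaemic spleens, so that only leukaemic replicate 1 was low. Its difference was -0.29 with all mice and -0.08 without that one. Cnn1, calponin 1, differed by -0.27 (SE 0.15) without overlap, and by -0.14 without wild type replicate 1. The pericyte genes Rgs5, a regulator of G protein signalling, and Cspg4, the proteoglycan NG2, differed by 0.02 (SE 0.17) and 0.00 (SE 0.16).

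Receptors for platelet-derived growth factor mark mesenchymal cells. Pdgfra, on fibroblasts, was at 9.19 and 8.84 in wild type and at 8.29 and 8.65 in leukaemic replicates 1 and 2. Its difference was -0.54 (SE 0.19, 95% interval -0.998 to -0.09, adjusted p = 0.17). Pdgfrb, on pericytes and reticular cells, was at 9.77 and 9.62 against 9.37 and 9.39, a difference of -0.31 (SE 0.14, adjusted p = 0.27). Neither gene overlapped between the groups. Pdpn, podoplanin, the surface mucin of T zone reticular cells, overlapped and differed by -0.04 (SE 0.15), with a positive sign after either rescaling of the arrays.

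In the endothelial class 0 of 9 genes were called (limma, beside 2.46% of all genes). An unadjusted p under 0.05 was reached by 2 (22.2%, beside 20.7% of all genes), 1 in each direction. Madcam1, the adhesion molecule of the cells that line the marginal sinus, was at 8.61 and 8.22 in wild type and at 7.37 and 7.60 in leukaemic replicates 1 and 2. Both leukaemic values were lower than both wild type values by more than the gap within either group. The mean was 8.41 ± 0.27 for wild type and 7.48 ± 0.16 in leukaemic spleen (SD, n = 2), a difference of -0.93 (SE 0.18, 95% interval -1.36 to -0.50). It missed the threshold narrowly (limma adjusted p = 0.0525). It was called with the dimmest genes left out (adjusted p = 0.036), with a trended prior (0.027), with probe sets averaged (0.048) and without leukaemic replicate 2 (0.0127, with the spread of the wild type mice alone, set equal for all genes). Over the alternatives adjusted p ran from 0.00523 to 0.16.

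Madcam1 is shown with its promoter because it had the largest negative difference and because paired sites for NF-kB, a factor downstream of lymphotoxin and tumour necrosis factor receptors, are known in the mouse gene. The window lies at chr10:79664309-79664608 on the plus strand of GRCm38.p6 (RefSeq), from 250 bases before to 50 bases after the annotated start. Capitals mark matches to the general NF-kB consensus, searched on both strands.
Madcam1: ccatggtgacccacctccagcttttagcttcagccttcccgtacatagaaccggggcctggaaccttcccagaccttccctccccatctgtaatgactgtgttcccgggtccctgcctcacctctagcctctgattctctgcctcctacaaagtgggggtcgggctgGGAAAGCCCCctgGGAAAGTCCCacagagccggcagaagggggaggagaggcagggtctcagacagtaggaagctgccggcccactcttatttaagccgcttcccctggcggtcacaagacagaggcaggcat
Both matches read on the minus strand, with their leftmost bases at -83 and -70 from the start site, and do not overlap. Of the 38 members, 26 had a promoter in the RefSeq table. The consensus was also found in Col4a2, Col6a2, Cspg4, Des and Kdr, that is in 6 of 26 members, and 8.46% of 32851 promoter windows of this length hold it. A GC box, GGGCGG on either strand, was found in the windows of 11 of the 26 members and in 35.7% of all windows. The 26 members had 28 windows, and a member counted if any of its windows matched. Counts of members and shares of windows thus differ in unit. Such matches describe the sequence and are not shown to be bound here.

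Tek, the angiopoietin receptor Tie2, was at 8.69 and 8.66 in wild type and at 9.50 and 9.04 in leukaemic replicates 1 and 2. Its groups did not overlap, and its difference of 0.59 (SE 0.18, 95% interval 0.15 to 1.03) did not pass (adjusted p = 0.14). Leaving out leukaemic replicate 1 gave 0.36, and leaving out the other leukaemic mouse 0.82. The related receptor Tie1 overlapped and differed by 0.13 (SE 0.16). Kdr, the main receptor for vascular endothelial growth factor, was at 9.31 in leukaemic replicate 1 and at 8.89 to 8.94 in the other 3 spleens, a difference of 0.18 (SE 0.17). Cdh5, the cadherin of endothelial junctions, was at 9.68 and 9.62 against 9.80 and 9.51. Its difference of 0.01 (SE 0.16) has a 95% interval from -0.36 to 0.38 and turned negative after quantile normalization.

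The scavenger receptor gene Stab2, of sinus endothelium, lay between 10.56 and 10.94 and differed by 0.07 (SE 0.18). Pecam1 encodes CD31, which platelets and many leukocytes also carry. It was at 10.65 and 10.50 in wild type and at 10.27 and 10.84 in leukaemic spleens, so that the leukaemic mice lay on either side of the wild type ones. Its difference of -0.02 (SE 0.21) turned positive with median centring. Eng, endoglin, a co-receptor for transforming growth factor beta found on endothelium and some macrophages, differed by -0.30 (SE 0.17, adjusted p = 0.40), with the lowest value, 10.07, in leukaemic replicate 2. It was -0.10 without that mouse and -0.50 without leukaemic replicate 1. Emcn, endomucin, was at 6.80 in wild type replicate 1 and at 6.12 to 6.43 in the other 3 spleens. Its values are low and are not shown to be above background.

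Further genes of the same compartments came from 7 lists chosen by function, with 189 of 202 genes measured. Of these 189, 2 rose, 4 fell and 183 did not pass, which is 3.17% called beside 2.46% of all genes, and the median difference was -0.16. At an unadjusted p under 0.05 stood 63 (33.3%, beside 20.7% of all genes), and 53 of them were negative (28.04%, beside 10.6% of all genes). Among 49 other matrix genes 1 fell (2.04%, beside 1.03% of all genes). This was Fbln5, fibulin 5, an organiser of elastic fibres. It was at 9.94 and 9.64 in wild type and at 8.80 and 8.76 in leukaemic spleens (difference -1.01, SE 0.16, limma adjusted p = 0.033). Collagen processing enzymes had 0 of 22 called by limma (beside 2.46% of all genes) and 3 at an unadjusted p under 0.05. These 3 had a negative difference (13.6%, beside 10.6% of all genes). P4ha3, a prolyl hydroxylase subunit, differed by -0.42 (SE 0.14) and Plod1, a lysyl hydroxylase, by -0.45 (SE 0.16). In matrix remodelling 1 of 17 fell (5.88%, beside 1.03% of all genes). Reck, a membrane-anchored inhibitor of matrix metalloproteinases, was at 8.68 and 8.20 in wild type and at 7.21 and 7.34 in leukaemic spleens (difference -1.17, SE 0.19, limma adjusted p = 0.034).

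Of 24 other contractile genes 1 fell (4.17%, beside 1.03% of all genes). This was Synpo2, an actin-binding protein of muscle, at 9.22 and 8.94 against 8.07 and 8.19 (difference -0.95, SE 0.16, limma adjusted p = 0.037). The list median was -0.25, close to that of the contractile members. Among 39 other endothelial genes 1 rose (2.56%, beside 1.43% of all genes). This was Erg, an ETS factor of endothelium that also acts in blood progenitors, at 8.28 and 8.52 in wild type and at 10.54 and 10.43 in leukaemic spleens (difference 2.08, SE 0.15, adjusted p = 0.0024). The median of that list was -0.05. Of 18 genes of TGF-beta and PDGF signalling 0 were called by limma (beside 2.46% of all genes) and 6 had an unadjusted p under 0.05. These 6 had a negative difference (33.3%, beside 10.6% of all genes). Smad7, an inhibitor of TGF-beta signalling, differed by -0.51 (SE 0.14) and the ligand gene Pdgfa by -0.44 (SE 0.15).

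The list of reticular cell genes had the most negative median of the 7, -0.60, and 12 of its 21 genes (57.1%, beside 10.6% of all genes) had a negative difference at an unadjusted p under 0.05. By the adjusted limma test 1 rose and 1 fell (9.52% of the 21, beside 2.46% of all genes called). Ccl19, a T zone chemokine, at 12.22 and 11.85 in wild type and at 10.58 and 11.11 in leukaemic spleens, fell by 1.19 (SE 0.22, adjusted p = 0.048). Bst1, a surface enzyme of bone marrow stroma that is also carried by precursor B cells, was at 9.44 and 8.91 in wild type and at 11.37 and 10.50 in leukaemic spleens (difference 1.76, SE 0.31, adjusted p = 0.041). Without wild type replicate 1 or 2, all 6 calls in these lists were lost (adjusted p from 0.062 to 0.23), and over all genes limma then called 38 and 0. Synpo2 and Ccl19 were also lost without leukaemic replicate 1 (0.095 and 0.072). Ccl19, Bst1 or both were lost under 4 further settings, and Reck after quantile normalization (0.058).

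Some members are also transcribed in blood cells. Markers of precursor B cells had a positive difference for all 9 measured genes, with a median of 1.19. Limma called 6 of them higher (66.7%, beside 1.43% of all genes). Markers of macrophages and megakaryocytes had mostly negative differences. Of 15 macrophage genes limma called 0 (beside 2.46% of all genes). A negative difference at an unadjusted p under 0.05 was seen for 10 (66.7%, beside 10.6% of all genes), and the list median was -0.47. All 7 megakaryocyte genes (100%, beside 26.2% of all genes) had a negative difference without overlap between groups, with a median of -0.71. Limma called 1 of them lower, Gp9 (14.3%, beside 1.03% of all genes). Beside these stand the medians of -0.14 for matrix, -0.28 for contractile and 0.01 for endothelial members, and of -0.60 for the list of reticular cell genes. None of these lists was compared with another by a test. The part of blood cells in Sparc, Fn1, Pecam1 and Eng, or in any other member, among them Lamc1, was not tested.

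**Figure D4:**
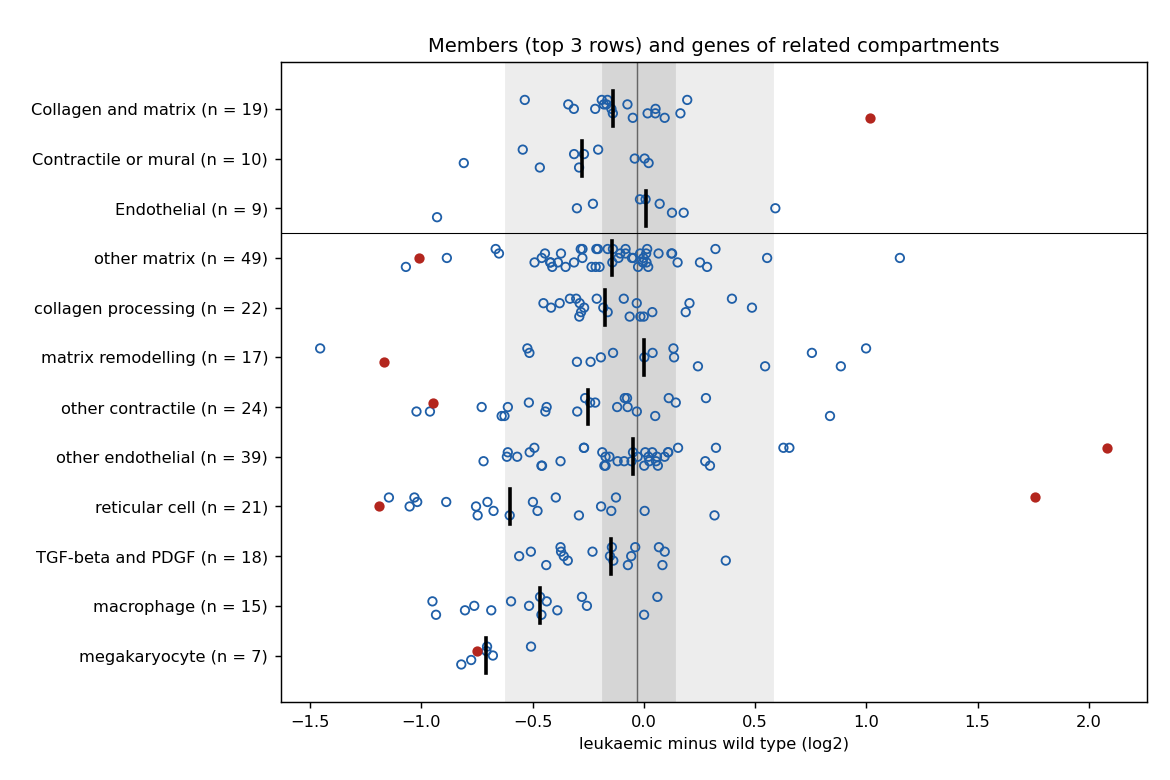
Leukaemic minus wild type difference on the log2 scale (horizontal axis), 1 point per gene, for the 3 classes of members above the line and for genes of related compartments and of 2 blood cell types below it; black ticks are medians, filled red points are genes with an adjusted p under 0.05. The grey bands hold the middle 50% and 90% of all 19297 genes; the reticular, macrophage and megakaryocyte medians lie at -0.60, -0.47 and -0.71, and those of the members between -0.28 and 0.01.

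Differences between mice of a group were as large as many differences between groups. The median gap between the wild type mice was 0.15 over the members and 0.20 over all genes, and between the leukaemic mice 0.27 over the members and 0.12 over all genes. Leukaemic replicate 2 lay below replicate 1 for 27 of 38 members, beside 10735 of all 19297 genes. Among the 27 were 16 of 19 matrix and 7 of 9 endothelial genes but 4 of 10 contractile or mural genes. Leukaemic replicate 2 was the lowest of the 4 spleens for 14 of 19 matrix genes, a count not made over all genes. The matrix mean was 8.88 in leukaemic replicate 1 and 8.66 in replicate 2, against 8.88 and 8.76 in wild type. Contractile or mural genes ran differently, with wild type means of 9.01 and 8.81 and leukaemic means of 8.59 and 8.65. Leukaemic replicate 1 was also the spleen with the higher mesothelial mean, and replicate 2 the male; their part in these gaps was not tested. Wild type replicate 2, with its pancreas transcripts, was highest of the 4 spleens for 6 of the 38 members. Wild type replicate 1 was highest for 17 and leukaemic replicates 1 and 2 for 11 and 4, counts not made over all genes. The members' median was -0.13 without wild type replicate 2. The effect of its pancreas transcripts on the members was not tested.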

How the data were processed

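RNA of 4 spleens was measured on Affymetrix whole-transcript arrays, 1 per mouse. The deposited values are on a log2 scale, 1 per probe set and array; the submitters' processing notes name RMA, R 2.15.0 and limma 3.12.1, with settings not given in the sources used here. The number of arrays limits the precision. Of 23309 probe sets, 20729 had a single gene symbol in the platform annotation. Where a gene had several, the probe set of highest average stood for it. Leukaemic and wild type spleens, grouped by their titles, entered a linear model without covariates (lmFit and eBayes of limma 3.58.1, R 4.3.3). P-values were Benjamini-Hochberg adjusted over 19297 genes and called under 0.05, with 2 residual and 4.83 prior degrees of freedom. In 2 against 2 mice the smallest exact two-sided permutation p is 0.333. The scripts were tested on simulated data. Alternatives were 2 rescalings, a filter, the prior, the probe set, the rows fitted, a replicate block and each mouse left out.

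The members and lists were chosen with earlier results of these data known. Named in full were called members, those with a difference of at least 0.8 (log2) and the 2 largest per class, with further values for the rest. From each further list the text gives up to 3 called genes, or the 2 of smallest p. Gene names and promoters came from RefSeq tables of GRCm38.p6. Figures were drawn with Python 3.11.15 and matplotlib 3.10.9.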

Additional observations from a re-analysis of the deposited data

How the results depend on the processing

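With 2 mice per group, depth of replication limits every call. Among the members, 0 were called lower; 1 was with the dimmest genes left out, with a trended prior or with probe sets averaged (Madcam1 each time, the 1 endothelial call), and 2 were under the replicate block (Des and Madcam1, 1 contractile and 1 endothelial) and without leukaemic replicate 2, a fit that gave all genes the same spread. Without each mouse in turn, members called higher ranged from 0 to 1 (in the matrix class too) and lower from 0 to 2 (0 to 1 in the contractile and endothelial classes). The median difference ranged from -0.19 to -0.0092 over members, -0.20 to 0.025 for matrix, -0.39 to -0.18 for contractile genes and -0.22 to -0.10 for the 189 further genes, whose median was -0.10 after median centring.

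The further genes called higher and lower, 2 and 4, became 1 and 2 after quantile normalization, 5 and 13 without dim genes, 4 and 13 with a trended prior, 8 and 22 under the replicate block, 1 higher with all probe sets, and 0 to 5 higher and 0 to 11 lower without a mouse. Over all genes, 276 and 199 became 168 and 93, 495 and 459, 509 and 456, and 785 and 908 under the first 4 of these settings, 121 lower with all probe sets, and 0 to 450 higher and 0 to 593 lower without a mouse. The causes were not tested; fewer genes are adjusted for in the filter, and fewer samples enter the fits without a mouse. Same-numbered mice were not shown to be paired: replicate 2 minus replicate 1 correlated between the groups at -0.09 over all genes and at 0.14 over the members, so the block is no second test.

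Signs of members that were not called changed as follows. Median centring put Col6a2, Pdpn and Pecam1 at 0.015, 0.024 and 0.047; quantile normalization put Col6a2, Pdpn and Cdh5 at 0.0034, 0.031 and -0.037. Without each mouse in turn, differences ranged from -0.26 to 0.12 for Col1a1, -0.11 to 0.21 for Col3a1, -0.12 to 0.22 for Col5a2, -0.13 to 0.16 for Col6a1, -0.13 to 0.025 for Col6a2, -0.79 to 0.45 for Dcn, -0.33 to 0.0032 for Lum, -0.61 to 0.17 for Postn, -0.00027 to 0.33 for Lama4, -0.50 to 0.091 for Acta2, -0.17 to 0.21 for Rgs5, -0.16 to 0.17 for Cspg4, -0.14 to 0.058 for Pdpn, -0.30 to 0.27 for Pecam1, -0.14 to 0.15 for Cdh5, -0.52 to 0.063 for Emcn, -0.11 to 0.25 for Stab2 and -0.030 to 0.39 for Kdr. The other 20 members kept their sign under all 11 alternatives that measured them.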

Other observations

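Some matrix genes outside the naming rule, chosen after their values were seen, differed by more than most members without passing the test. Mmp9, a gelatinase of neutrophils and macrophages, was at 10.14 and 10.48 in wild type and at 8.31 and 9.41 in leukaemic replicates 1 and 2 (limma adjusted p = 0.073). Timp1, an inhibitor of metalloproteinases, was at 7.84 and 7.46 against 8.68 and 8.38 (adjusted p = 0.061). Vcan, the proteoglycan versican, was at 6.13 and 6.32 in wild type, 6.76 in leukaemic replicate 1 and 7.98 in leukaemic replicate 2 (adjusted p = 0.14). The 3 do not give the direction of their lists. Of 49 other matrix genes, 10 had a negative difference at an unadjusted p under 0.05 (20.4%, beside 10.6% of all genes), and only Vcan a positive one. Fmod was the most negative, at -1.07 (SE 0.24, limma adjusted p = 0.066). Of 17 matrix remodelling genes 8 did so (47.1%, beside 20.7%), 4 in each direction.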
